A study of Macaca mulatta with 22 samples.

Results

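Simple epithelial keratins are the intermediate filament proteins of single-layered epithelia, and KRT7, KRT8, KRT18 and KRT19 are among their main members. Their transcripts were read here in 22 single rhesus macaque oocytes and embryos, in 1 deposited table of RPKM values (a read count scaled to transcript length and to the library's mapped reads) with 35468 entries. Every entry whose symbol was KRT7, KRT8, KRT18 or KRT19 was taken and kept apart, which gave 6 of the 35468 entries. They are 3 entries named KRT18 and 1 each named KRT7, KRT8 and KRT19. That search missed the abundant KRT8 entry. The KRT8 entry it found, on chromosome 4, held at most 0.327 RPKM, while an entry on chromosome 11 (ENSMMUG00000002163) carries an internal code as its gene name but KRT8 as its WikiGene name, and its RefSeq peptide belongs to KRT8 in the gene table. This entry was added after its values were seen, is called KRT8 below, and is counted apart from the 6.

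The libraries cover 9 stages. Oocytes, recovered from donor animals after death and hormonal superovulation, were taken with an intact germinal vesicle (GV, 2 libraries), at the first meiotic metaphase (MI, 2 libraries) or at the second (MII, 3 libraries). Embryos came from sperm injection followed by culture. They were taken with pronuclei (PN, 3 libraries), with 2 cells (2C, 2 libraries), with 4 cells (4C, 3 libraries), with 8 cells (8C, 2 libraries), as morulae (Mo, 3 libraries) or as blastocysts (Bl, 2 libraries). Labels give no strain, age, sex or donor, so each oocyte or embryo is 1 replicate, and the spread behind the p-values is that among individual oocytes and embryos, some of which may share an animal. MII and PN differ in source as well as stage.

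Keratin filaments are built from pairs of 1 acidic type I and 1 basic type II chain, and an unpaired chain is generally degraded. KRT18 and KRT19 are type I and KRT7 and KRT8 are type II. KRT8 and KRT18 are usual partners and are among the first keratins made in a mammalian embryo, where they are known as markers of the trophectoderm, the outer epithelium of the blastocyst that later forms the placenta. KRT7 and KRT19 are further keratins of simple and ductal epithelia and of trophoblast.

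Depth, read back from the low values, was between 7.20 and 21.44 M reads per library. Morula library 2 stood apart with 4277 entries at 1 RPKM or more, against 6763 to 10017 in the others. Summed oocyte markers (10 of 10 genes found) fell from between 195.8 and 207.6 RPKM at 8C to between 8.17 and 9.90 at Mo. Summed trophectoderm markers (14 of 14 found) were 150.1 to 194.1 RPKM at 8C, 29.6 to 111.4 at Mo and 95.7 to 189.5 at Bl, with CGA and CGB at 0 in both blastocysts. From Mo to Bl 6 of 11 tested trophectoderm markers were called higher, as were 2 of 9 for the epiblast and 2 of 7 for the primitive endoderm, where 12% of all 14312 entries tested were. Of the 6, 3 (GATA2, GATA3 and TFAP2A) passed the minimum level for testing only through the blastocysts. A blastocyst holds all of these cell types, so more cells of 1 type and more RNA per cell cannot be told apart.

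KRT18 (ENSMMUG00000031911, chromosome 11, 50014162 to 50018234), the type I partner of KRT8, was the most abundant simple keratin by mean level in the blastocyst. Its level was 1206 RPKM in blastocyst 1 and 879.7 RPKM in blastocyst 2, and 6.79, 69.2 and 3.96 RPKM in morulae 1 to 3. Both blastocysts lay above every morula, and the lower blastocyst held 12.7 times the level of the highest morula. The means were 1043 ± 231 RPKM (SD, n = 2) at Bl and 26.6 ± 36.9 RPKM (SD, n = 3) at Mo, of which the second becomes 5.37 RPKM without morula library 2. The change on the log2(RPKM + 1) scale was 6.21 (SE 0.73, limma adjusted p = 1.06e-05). Among all entries KRT18 ranked 119th in blastocyst 1 and 85th in blastocyst 2.

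KRT8 (ENSMMUG00000002163, chromosome 11, 49965072 to 49973024), the type II partner of KRT18, was nearly absent before the blastocyst. Morulae 1 to 3 held 0.072, 0 and 1.39 RPKM, which correspond to about 2, 0 and 43 reads, and the 0 in morula 2 allows up to 0.085 RPKM at the level of 3 reads. Blastocysts 1 and 2 held 1236 and 262.8 RPKM. The lower blastocyst thus held 188.8 times the level of the highest morula, and the groups did not overlap. The log2 change was 8.70 (SE 0.59, limma adjusted p = 1.68e-08). The morula mean of 0.488 RPKM becomes 0.036 RPKM without morula library 3.

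KRT19 (ENSMMUG00000018653, chromosome 16, 51615393 to 51620283), a type I keratin that lacks the usual tail domain, was much lower. It stood at 19.2 and 42.9 RPKM in blastocysts 1 and 2 and at 2.03, 20.3 and 8.77 RPKM in morulae 1 to 3. Morula 2 lay above blastocyst 1, so the groups overlapped. The log2 change from Mo to Bl was 1.80 (SE 0.58, limma adjusted p = 0.0444), and the call held in only 2 of 11 alternative settings. It ended on leaving out Mo library 1 (adjusted p = 0.167), Mo library 3 (0.0545), Bl library 1 (0.0521) or Bl library 2 (0.348), and with another scaling (0.266) or the replicate number as a block (0.0573).

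KRT7 (ENSMMUG00000010000, chromosome 11, 49337690 to 49411912), the second type II member, stayed below 1 RPKM in every library. It was read in 4 of 22 libraries, at 0.975 and 0.771 RPKM in blastocysts 1 and 2 (about 22 and 20 reads), 0.131 RPKM in 8-cell embryo 1 and 0.028 RPKM in 4-cell embryo 2. All 3 morulae were at 0, where 3 reads would give 0.080 to 0.101 RPKM. With its level under the minimum of 1 RPKM in at least 2 libraries, it was not tested in the main analysis. Without that minimum its Mo to Bl change was 0.90 (SE 0.065, limma adjusted p = 1.17e-07). This small SE rests mostly on libraries at 0, so the p-value says little about the spread among embryos. Its entry spans 74223 bp and overlaps that of KRT81, a hair keratin, so reads of the 2 genes may not be separable.

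**Figure D1:**
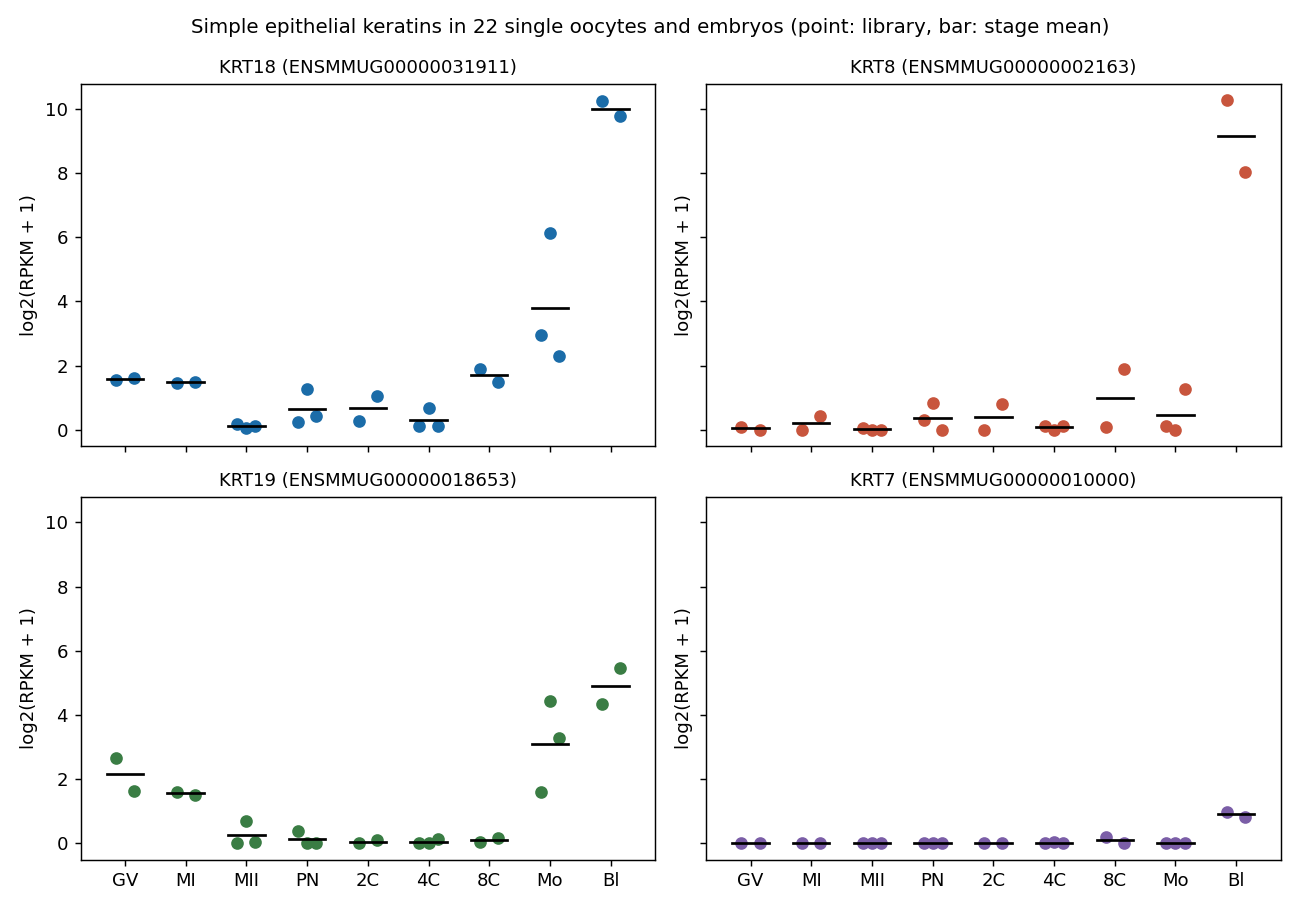
RPKM of the 4 keratins in each of 22 libraries, as log2(RPKM + 1), by stage from GV oocytes to blastocysts; each point is a library and each bar the mean of the plotted values. KRT18 and KRT8 are above 8 in both blastocysts, KRT19 already rises above its 8-cell level in the 3 morulae, and KRT7 stays below 1 throughout.

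Of the 6 entries found by symbol, 2 (KRT18 and KRT19) passed the minimum and both were called higher at Bl than at Mo, where 12% of the 14312 entries tested were called higher and 2.12% lower. With KRT8 the count was 3 of 3. The minimum favours entries that are high in the blastocyst, so these counts describe the entries and are no test of the family. When only Mo and Bl libraries entered the fit, 9 entries of the whole table were called. KRT8 was among them (adjusted p = 0.0268), and KRT18 (0.0681) and KRT19 (0.393) were not.

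The other entries that carry these symbols were at the edge of detection. The chromosome 12 entry named KRT18 (101930104 to 101930589, 486 bp) was read in 5 libraries, with about 2 reads in blastocyst 1 and 1 read in blastocyst 2. The chromosome 3 entry named KRT18 (135706172 to 135710177) reached 0.841 RPKM in 1 pronuclear embryo and 0.071 RPKM in 1 blastocyst. The chromosome 4 entry named KRT8 (81875694 to 81877202) held about 6 reads in blastocyst 1 and 4 in blastocyst 2, where the chromosome 11 entry held about 26345 and 6447. Reads of near-identical sequences can be split among entries of 1 symbol, which was not tested here.

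The step from 8C to Mo asks whether the keratins had changed before the blastocyst. KRT19 stood at 0.035 and 0.128 RPKM in 8-cell embryos 1 and 2, about 1 and 2 reads, and the lowest morula held 15.8 times the level of the highest 8-cell embryo. The log2 change was 2.99 (SE 0.58, limma adjusted p = 7.54e-04), and the call held in 10 of 11 alternatives, ending at 0.0831 when only the 2 stages were fitted. At this step 25.4% of all entries were called, 5.39% higher and 20% lower.

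KRT18 was at 2.74 and 1.81 RPKM in 8-cell embryos 1 and 2, below all 3 morulae, and the lowest morula was 1.44 times the highest 8-cell embryo. Its change from 8C to Mo was 2.11 (SE 0.73, limma adjusted p = 0.0405) and depended on single libraries. Without Mo library 2 it was 0.94 (adjusted p = 0.137), and it also missed the threshold without 8C library 1 (0.0953) or 8C library 2 (0.178). KRT8 was not called at this step, with a log2 change of -0.54 (95% interval -1.77 to 0.69, limma adjusted p = 0.574). Its 8-cell values were 0.055 and 2.75 RPKM, and the 2 stages overlapped.

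Whether the keratins differed from each other in these steps was tested on the difference of their log2 levels within each library. From 8C to Mo, KRT19 gained 3.53 log2 units on KRT8 and KRT18 gained 2.64. From Mo to Bl, the level of KRT19 relative to KRT8 changed by -6.91 and that of KRT18 relative to KRT19 by 4.41, and in neither case did the libraries overlap. The level of KRT18 relative to KRT8 changed by -2.50 from Mo to Bl, and the libraries overlapped. With 2 and 3 libraries an exact 2-sided permutation test cannot go below p = 0.2, so it cannot decide whether the keratins differed. The value of 0.2 was reached in 3 of these comparisons, and KRT18 against KRT8 gave 0.4 at both steps. Of all 9 such comparisons, none had a Benjamini-Hochberg adjusted value of the exact permutation p under 0.36.

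Measured from the 8-cell stage, all 3 rose to Bl, by 8.31 (SE 0.80, limma adjusted p = 3.88e-07) for KRT18, 8.17 (SE 0.64, adjusted p = 3.2e-08) for KRT8 and 4.79 (SE 0.64, adjusted p = 1.66e-05) for KRT19. These calls held in 11 of 11 alternatives. The lowest blastocyst was 321.1 times the highest 8-cell embryo for KRT18, 150.3 times for KRT19 and 95.7 times for KRT8. At this step 27.6% of all entries were called, 12.8% higher and 14.7% lower. The 8C to Bl and Mo to Bl comparisons share the blastocyst libraries.

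**Figure D2:**
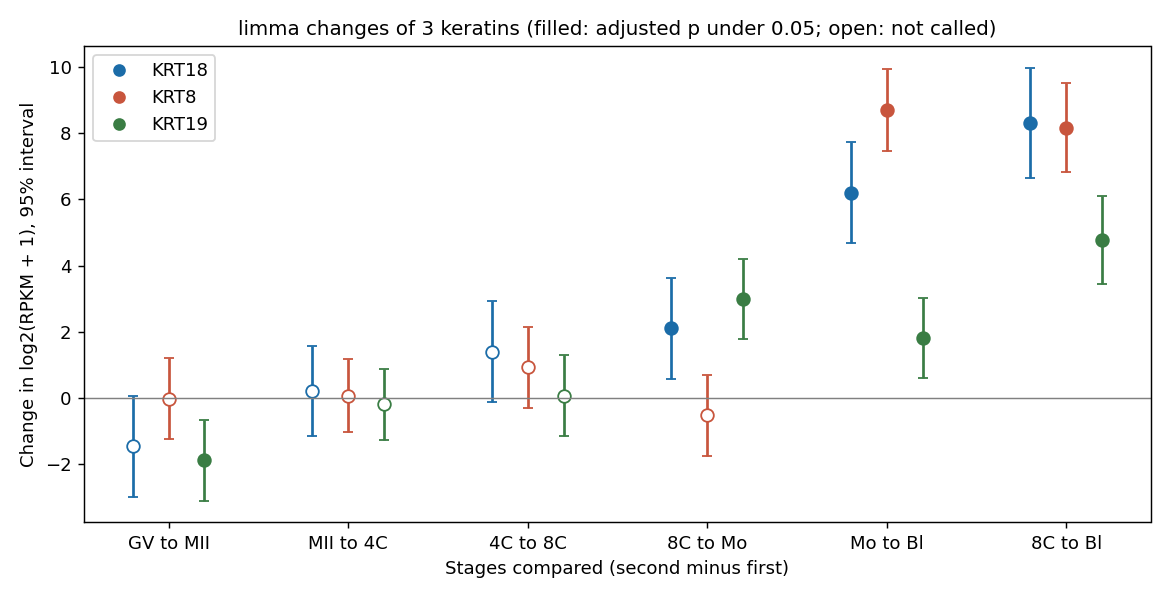
Change in log2(RPKM + 1) between stages for KRT18, KRT8 and KRT19, with 95% intervals from limma; filled points are called at an adjusted p under 0.05. KRT19 changes by 2.99 from 8C to Mo and by 1.80 from Mo to Bl, and KRT8 is not called until the blastocyst enters the comparison (8.70 from Mo to Bl).

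Before the 8-cell stage the keratins were low, and KRT18 and KRT19 had a first, lower plateau in immature oocytes. KRT18 stood at 1.91 and 2.08 RPKM in GV oocytes and 1.76 and 1.82 RPKM in MI oocytes, and at 0.124, 0.037 and 0.088 RPKM (about 4, 1 and 3 reads) in MII oocytes. KRT19 stood at 5.35 and 2.11 RPKM in GV oocytes, 1.99 and 1.86 RPKM in MI oocytes and 0, 0.631 and 0.033 RPKM in MII oocytes. For both genes every GV oocyte lay above every MII oocyte. KRT8 was at 0.060 and 0 RPKM in GV oocytes, 0 and 0.353 RPKM in MI oocytes and 0.028, 0 and 0 RPKM in MII oocytes, and the GV and MII libraries overlapped.

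The log2 change of KRT19 from GV to MII was -1.90 (SE 0.58, limma adjusted p = 0.0457), at a step where 9.31% of all entries were called, 8.97% lower and 0.342% higher. The call was lost on leaving out any 1 of the GV or MII libraries (GV library 1, adjusted p = 0.427; GV library 2, 0.0762; MII library 1, 0.118; MII library 2, 0.0657; MII library 3, 0.106). The KRT18 change of -1.47 was not called (adjusted p = 0.245) in the fit of all libraries but was in the fit without Mo library 2 (0.0207). Markers of cumulus and granulosa cells, which surround the oocyte and can cling to it, summed to 113.3 to 161.6 RPKM at GV and 167.5 to 212.9 at MII (17 of 17 genes found). Of these genes, 3 reached 1 RPKM in some GV library and 5 in some MII library. Of the 17, the granulosa genes AMH, AMHR2, FOXL2 and the cumulus gene PTX3 were at 0 in all libraries, and other genes of the list made up these sums. Whether such cells clung to the oocytes was not tested.

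From MII to 4C none of the 3 keratins was called, where 9.2% of all entries were (3.11% higher and 6.09% lower), and none had an unadjusted p under 0.05. From 4C to 8C, across the activation of the embryonic genome, none was called either by limma, where 24% of all entries were (13.9% higher and 10.2% lower), and none had an unadjusted p under 0.05. KRT18 stood at 0.093, 0.603 and 0.089 RPKM in 4-cell embryos, below both 8-cell embryos. Its change of 1.39 (adjusted p = 0.183) was called without Mo library 2 (adjusted p = 0.0141). KRT19 held between 0 and 0.29 RPKM in every library from PN to 8C, which is 0 to 4 reads.

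Ordered by stage mean, KRT18 was highest at Bl (1043 RPKM), then Mo (26.6), 8C (2.27), GV (1.99) and MI (1.79), with 8C and GV overlapping. Below these came 2C (0.656), PN (0.647), 4C (0.262) and MII (0.083), each overlapping the next. KRT19 was highest at Bl (31.1 RPKM), Mo (10.4) and GV (3.73), with neighbours overlapping, and the Mo mean becomes 5.40 RPKM without Mo library 2. MI (1.93) came next without overlap, and the means from MII (0.221) to 4C (0.034) overlapped from each stage to the next in this order. KRT8 was highest at Bl (749 ± 688 RPKM, SD, n = 2), and the next stages, 8C (1.40) and Mo (0.488), overlapped. KRT7 was highest at Bl (0.873) and next at 8C (0.066), with no overlap.

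Because keratins pair, the balance of type II to type I transcripts was set out per library, which RPKM allows as a level per length of transcript. In blastocyst 1 the ratio of KRT8 to KRT18 was 1.02, and in blastocyst 2 it was 0.299. KRT18 made up 49.0% and 74.2% of the summed RPKM of the 4 keratins in blastocysts 1 and 2, and KRT8 50.2% and 22.2%. In the morulae the type I genes made up most of the sum, with KRT18 at 76.4%, 77.3% and 28.0% of the sum in morulae 1 to 3. In morula 3 the larger share was that of KRT19.

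KRT8 was thus the member in which the 2 blastocysts differed most. Its level in blastocyst 1 was 4.70 times that in blastocyst 2, a log2 ratio of 2.23 that exceeded those of 96.2% of the 3305 entries with a mean of at least 10 RPKM at Bl, whose median log2 ratio was 0.497. The corresponding ratio was 1.37 for KRT18 and 1.26 for KRT7, and KRT19 went the other way at 0.449. The log2 ratio of KRT18, 0.455, lay near that median and exceeded those of 48.4% of these entries. That of KRT19, -1.12, exceeded those of only 9.35%. With 1 library on each side these ratios describe the 2 embryos and have no replicate check.

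**Figure D3:**
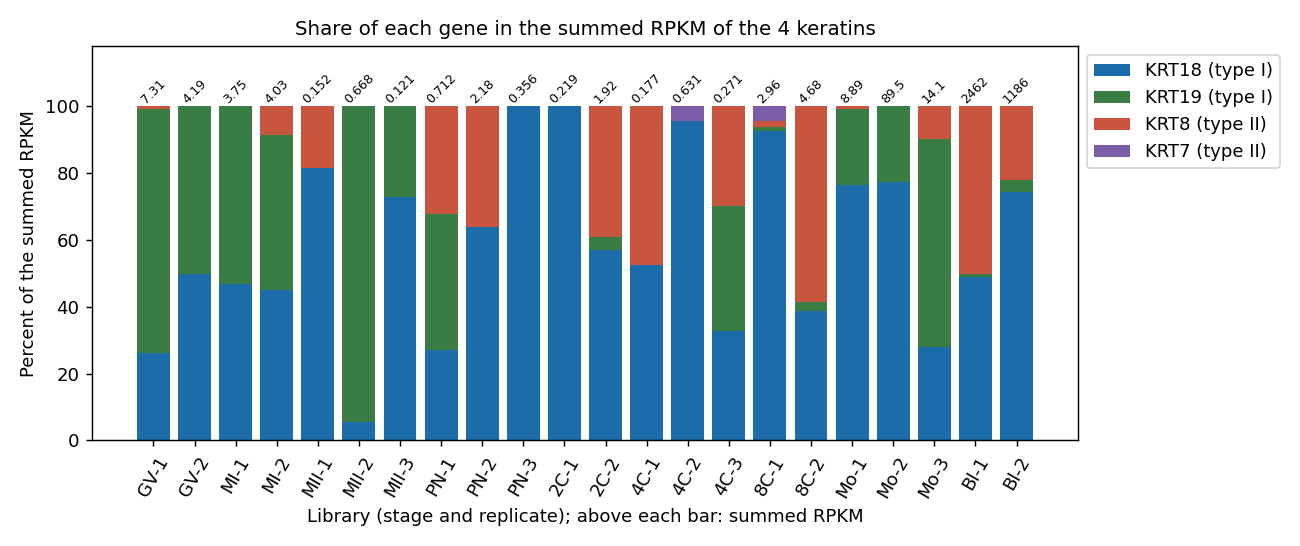
Share of each gene in the summed RPKM of KRT18, KRT19, KRT8 and KRT7 in each of 22 libraries, with the summed RPKM above each bar. The type II gene KRT8 makes up 50.2% and 22.2% of the sum in the 2 blastocysts; shares of libraries with a small sum rest on few reads.

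No other keratin was called higher in the blastocyst than in the morula. The table holds 51 entries of other keratins, of which 15 were at 0 in all libraries and 9 were tested. By limma none of the 9 was called from Mo to Bl, where 14.1% of all entries were. Their median log2 change was 0 against 0.228 for all entries tested. No other keratin entry reached 1 RPKM in both blastocysts, and the highest value in either was 1.11 RPKM.

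KRT8 and KRT18 lie close together at one end of the type II keratin cluster on chromosome 11, 41138 bp apart, with KRT18 the only type I gene of that cluster. Apart from KRT7, described above, the 20 other keratin entries of this region were below 1 RPKM in every library, and at most 0.039 RPKM in a blastocyst. The neighbouring keratins KRT4, KRT79 and KRT78 were at 0 in both blastocysts. Between KRT8 and KRT18 lies an entry named LIMA1 in the file (IMMRNTR2613, a name that could not be checked), with 7.11 and 1.11 RPKM in blastocysts 1 and 2 and 0 in the morulae. EIF4B, a translation initiation factor on the far side of KRT18, stood at 36.2, 78.8 and 25.2 RPKM in the morulae and 36.8 and 58.7 RPKM in the blastocysts.

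KRT19 lies in the type I cluster on chromosome 16, where 8 of 24 other entries reached 1 RPKM in some library. KRT15, a basal keratin whose entry lies beside KRT19, stood at 3.82, 8.61 and 5.39 RPKM in 4-cell embryos and 0 and 0.069 RPKM in 8-cell embryos (log2 change -2.69, limma adjusted p = 1.52e-04). KRT222, a keratin-like gene, stood at 44.4 and 21.2 RPKM in 8-cell embryos and 4.29, 0.105 and 1.14 RPKM in morulae (log2 change -3.77, limma adjusted p = 3.34e-05). KRT23 fell from MII to 4C, from 36.1 ± 10.8 to 5.87 ± 1.47 RPKM (SD, n = 3 each, limma adjusted p = 0.00284). Of the other keratin entries tested anywhere in the genome, 5 of 9 were called lower and 0 higher from 8C to Mo. Among all entries 20% were called lower and 5.39% higher. Of the 9, 3 lie outside both keratin clusters. They include the 2 with the smallest limma adjusted p, chromosome 1 entries named KRT77 (1.41e-07) and KRT80 (8.23e-07). These 2 names were not checked.

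**Figure D4:**
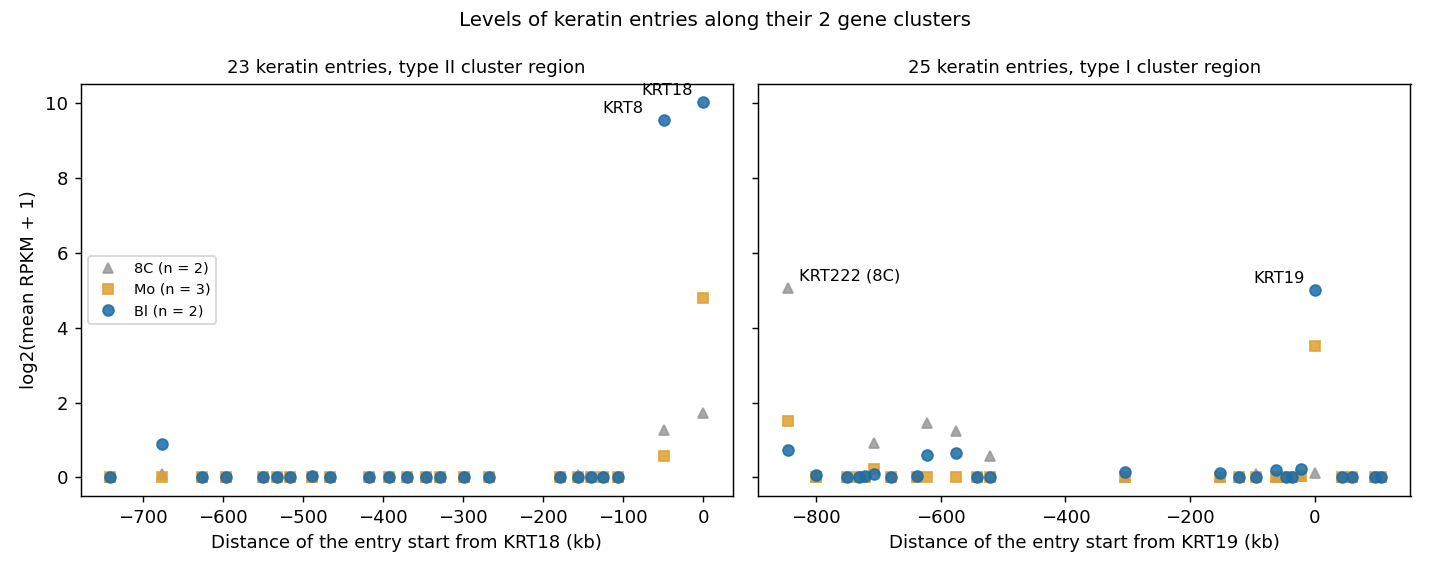
Mean RPKM of keratin entries at 8C, Mo and Bl, as log2(mean RPKM + 1), against the distance of each entry's start from that of KRT18 (left) or KRT19 (right) in kb. In the left panel KRT8 and KRT18 alone stand above 1 on this scale, and in the right panel KRT19 leads at Mo and Bl while KRT222 leads at 8C.

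Of other intermediate filament genes, 1 of 12 tested entries was called higher and 1 lower from Mo to Bl, beside 12% and 2.12% of all entries. LMNA encodes the A-type lamins of the nuclear envelope. Its called entry rose from 0.099, 0 and 0.449 RPKM in the morulae to 5.04 and 1.79 RPKM in the blastocysts (log2 change 1.81, limma adjusted p = 7.07e-04). That entry passed the minimum only through the blastocysts. A second tested entry named LMNA was at 0 in all morulae and blastocysts, and reached 5.12 RPKM in MII oocyte 3. PRPH, the type III filament of peripheral neurons, was at 20.5 ± 2.47 RPKM (SD, n = 2) at 8C and 0.052 ± 0.074 RPKM at Bl (limma adjusted p = 5.6e-08).

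Desmosomes anchor keratin filaments to the cell membrane, and 3 of 13 tested entries of this list were called higher and 0 lower from Mo to Bl, beside 12% and 2.12% of all entries. Of these 3, PKP2 passed the minimum only through the blastocysts. The list's median log2 change was 0.57, against 0.228 for all entries. PKP2, a plakophilin of the desmosomal plaque, stood at 1.61, 0 and 0.897 RPKM in the morulae and 15.6 and 25.8 RPKM in the blastocysts (log2 change 3.63, SE 0.41, limma adjusted p = 7.65e-06). JUP, the plakoglobin of the same plaque, stood at 0.054, 2.50 and 0.719 RPKM in the morulae and 10.96 and 10.35 RPKM in the blastocysts (log2 change 2.65, limma adjusted p = 0.00197). Its blastocyst level was not particular to that stage, as MII oocytes 1 to 3 held 12.1, 7.32 and 9.59 RPKM. PERP, a desmosomal membrane protein, was the third, and lost its call without Bl library 2 (adjusted p = 0.168).

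DSP encodes desmoplakin, the protein that links the plaque to keratin filaments. It stood at 1.42 and 2.45 RPKM in 8-cell embryos, 4.96, 13.7 and 6.46 RPKM in morulae and 5.13 and 13.8 RPKM in blastocysts, and Mo and Bl overlapped. Its change from 8C to Mo was 1.59 (limma adjusted p = 0.0153), lost without 8C library 1 (adjusted p = 0.115) or Mo library 2 (0.0585).

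Of transcription factors of the trophectoderm and simple epithelia, 8 of 21 tested entries were called higher and 0 lower from Mo to Bl, beside 12% and 2.12% of all entries. The list's median log2 change was 0.90, against 0.228 for all entries. Of the 8, 5 (ELF3, GATA2, GATA3, TEAD4 and TFAP2A) passed the minimum only through the blastocysts, so their calls were favoured by it and the count is no support for a change of the list. GATA2, a trophectoderm regulator, was at 0 in all 3 morulae and at 9.696 and 10.998 RPKM in the blastocysts (limma adjusted p = 1.83e-09). GATA3, its paralog, stood at 0.918, 0 and 0.042 RPKM in the morulae and 15.9 and 21.2 RPKM in the blastocysts (limma adjusted p = 7.65e-08). ELF3, an epithelial ETS factor, stood at 0, 0 and 0.76 RPKM in the morulae and 33.8 and 9.95 RPKM in the blastocysts (limma adjusted p = 4.38e-07). Like KRT8, ELF3 was higher in blastocyst 1, and GATA2 and GATA3 were higher in blastocyst 2.

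Of AP-1 and SP factors, which bind keratin gene control regions, 1 of 3 tested entries was called higher and 0 lower from Mo to Bl, where 12% and 2.12% of all entries were. JUND, an AP-1 subunit, changed before the blastocyst, from 4.44 ± 1.47 RPKM (SD, n = 2) at 8C to 49.2 ± 15.9 RPKM (SD, n = 3) at Mo (log2 change 3.18, limma adjusted p = 2.5e-05). KRT18 and KRT19 were called higher at the same step, as were 5.39% of all entries, and a link to JUND was not tested. KLF4 was already at 55.7 and 48.7 RPKM in 8-cell embryos and at 81.6 and 72.9 RPKM in blastocysts.

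Of keratin kinases and binding partners, 3 of 13 tested entries were called higher and 0 lower from Mo to Bl, beside 12% and 2.12% of all entries. SFN, a 14-3-3 protein of epithelia that binds keratins, stood at 0, 0 and 2.33 RPKM in the morulae and 10.1 and 3.48 RPKM in the blastocysts (limma adjusted p = 0.00144), and lost its call without Bl library 1 (0.0539). It passed the minimum only through the blastocysts. From 8C to Bl, 7 of 13 were called higher and 0 lower, beside 12.8% and 14.7% of all entries. YWHAZ, another 14-3-3 protein, rose from 58.8 and 32.1 RPKM to 557.3 and 557.7 RPKM (limma adjusted p = 1.29e-04).

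**Figure D5:**
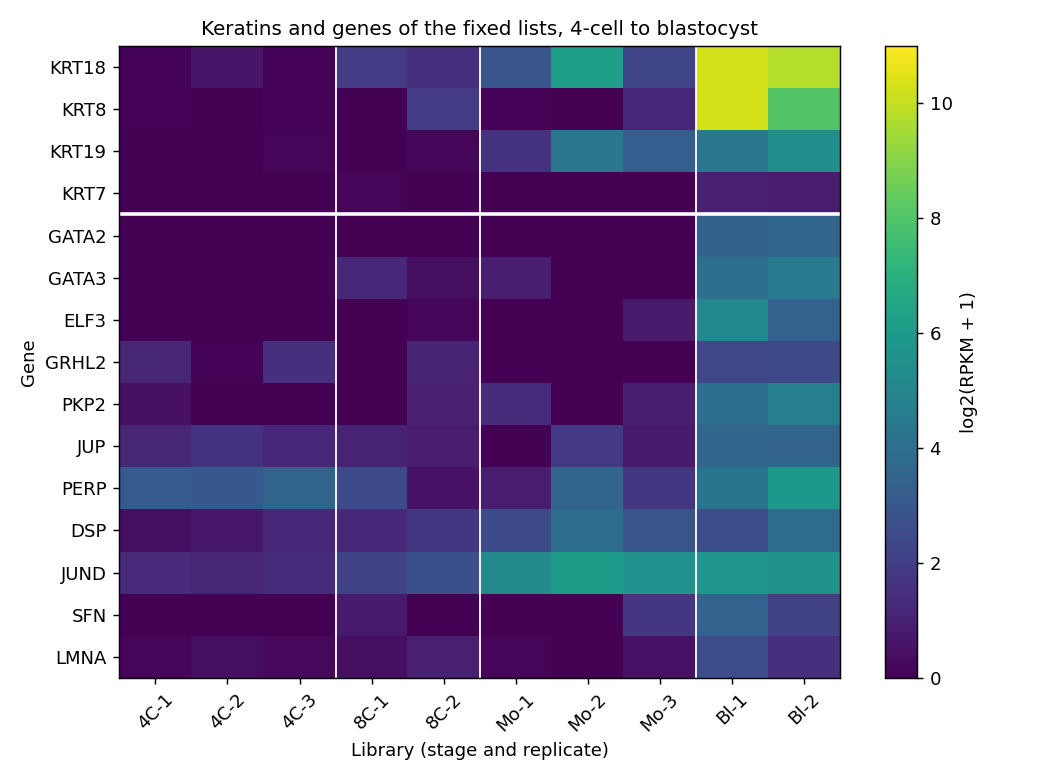
log2(RPKM + 1) of the 4 keratins (above the white line) and 11 genes of the lists in each library from 4C to Bl. GATA2, GATA3 and ELF3 are dark in morulae and lighter in both blastocysts, as KRT8 is, while DSP and JUND are already lighter in morulae.

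The genes whose pattern over all 22 libraries was most like each keratin were found by Pearson correlation of log2(RPKM + 1), as a description, since libraries share their stages. For KRT8 they were CD274 (r = 0.991), TRIM5 (0.987), ELF3 (0.986), CAPG (0.986) and VGLL1 (0.984). All 5 passed the minimum only through the blastocysts. Their low levels at earlier stages therefore follow from how they were chosen. Before the blastocyst the highest value of any of the 5 was 1.44 RPKM, that of TRIM5 in 8-cell embryo 2. Their Spearman correlations with KRT8 were lower, at 0.612, 0.173, 0.688, 0.587 and 0.575 in the same order. VGLL1, a TEAD cofactor, stood at 63.1 and 34.8 RPKM in the blastocysts. For KRT18 they were CHDH (0.958), TTLL12 (0.958), BCAT1 (0.954), SERPINB9 (0.947) and ARMH3 (0.945), and all 5 were above 0 in each of the 3 morulae.

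For KRT19 the most alike were HSPD1 (0.95), IDH3B (0.909), ACAA2 (0.905), ATIC (0.905) and TTLL12 (0.904). HSPD1, IDH3B and ACAA2 encode mitochondrial proteins, and like KRT19 they were higher in GV oocytes than in MII oocytes and highest among the morulae in library 2. HSPD1 stood at 75.2 and 91.5 RPKM at GV, 23.8 to 32.4 at MII, and 97.4, 481.2 and 161.1 RPKM in morulae 1 to 3. The keratins themselves correlated at 0.877 for KRT18 with KRT19, 0.874 for KRT18 with KRT8 and 0.66 for KRT19 with KRT8. By Spearman correlation, which uses ranks, the same pairs gave only 0.717, 0.393 and 0.292.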

How the data were processed

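Per the labels' protocols, RNA of single oocytes and embryos was amplified by SMARTer Ultra Low Input chemistry, and libraries used TruSeq DNA reagents. The authors deposited RPKM values per entry, and per the submitters' processing notes the build is Mmul 8.0.1. The aligner, counting program and annotation are not given in the sources used here, and positions are as deposited. Symbols came from the name table for 15556 entries and otherwise from the file. Depth was chosen for each library so that about the most low values of entries under 200 bp came out whole to within 0.05 reads. This was so for 449 of 488 values (92.0%), and for 75.0% in the lowest library, MII library 2. As the depth was chosen by this share, the share is no separate check on it. Read numbers rest on these depths and on a transcript length fitted to each entry. That length was the smallest found to make the entry's values under 0.5 RPKM nearly whole reads. For KRT7 it rests on 2 values. Read numbers are thus estimates and cover counting error only.

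The 14312 entries that reached 1 RPKM in 2 or more libraries were fitted by limma (3.58.1, R 4.3.3), as log2(RPKM + 1), with 1 mean for each of 9 stages over 22 libraries, 13 residual degrees of freedom before moderation, and trend and robust settings. This scale understates changes of low genes. Tests were 2-sided, adjusted by Benjamini-Hochberg over all entries, and a call is an adjusted p under 0.05. The fit was tested on simulated data. The members and lists were chosen with earlier results of these data known, the rise from morula to blastocyst included. Named are all keratin entries, up to 4 called list members with the smallest adjusted p from Mo to Bl and up to 2 in other comparisons, the member highest at Bl, and 5 correlated genes per keratin; the text gives those closest to the keratins, and LIMA1, EIF4B and genes shown as neighbours were chosen after their values were seen. No library was left out. Alternatives were a pseudocount of 0.1, no minimum, at least 5 RPKM, median-of-ratios scaling, only the stages compared, a replicate block, each library left out, and, added after the data were seen, the chromosome 11 KRT8 entry and fits without Mo library 2. Python 3.11.15, numpy 2.4.6, pandas 2.3.3, scipy 1.17.1 and matplotlib 3.10.9 were used.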

Additional observations from a re-analysis of the deposited data

How the results depend on the processing

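The 8C to Bl rises of KRT18, KRT8 and KRT19 and the Mo to Bl rise of KRT8 held in 11 of 11 alternatives, and the Mo to Bl rise of KRT18 in 10 of 11. Of the entries found by symbol, 2 were called from Mo to Bl. This count became 1 with a pseudocount of 0.1, with median-of-ratios scaling and with the replicate block, 4 of 6 without the minimum, 0 with only the 2 stages fitted, and 1 to 2 on leaving out a library. From 8C to Bl it was 2 and became 5 without the minimum. From 8C to Mo it was 2 and became 1 with the pseudocount and without the minimum, 0 with only the 2 stages, and 1 to 2 on leaving out a library. From 4C to 8C it was 0 and became 1 with the pseudocount, with only the 2 stages (where 1 entry was tested) and without Mo replicate 2 (0 to 1 over all left-out libraries). From GV to MII it was 1 and became 0 without the minimum, with scaling and with the replicate block, 2 with only the 2 stages, and 0 to 2 on leaving out a library (2 without Mo replicate 2). From MII to 4C it stayed at 0 in every alternative run, but with only the 2 stages none of these entries passed the minimum, so none could be called. In each case the cause was not tested. Fits without some libraries or stages had fewer samples, and counts went down in some of them and up in others.

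Signs turned for uncalled changes near 0: KRT19 from MII to 4C without MII replicate 2 (0.023; lowest without MII replicate 1, -0.33), KRT8 from 8C to Mo without 8C replicate 2 (0.376; without 8C replicate 1, -1.45) and KRT8 from GV to MII without GV replicate 1 (0.013; without GV replicate 2, -0.071). Of the 5 genes most like each keratin, 0 for KRT18, 1 for KRT19 and 0 for KRT8 were also among the 5 by Spearman correlation. Of 98 calls of named list genes, 47 were lost under some alternative. Same-numbered libraries correlated at -0.098 to 0.12, so the numbers were not taken as pairs.

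Counts over all entries moved by over 1.5 times from Mo to Bl (2024) with only the 2 stages (9) and without Bl library 1 (1149), from 8C to Bl (3944) with only the 2 stages (2435) and without Bl library 1 (2460), and from 8C to Mo (3636) with only the 2 stages (1571). From MII to 4C the count (1316) was 2226 with only the 2 stages, 703 without MII library 1, 861 without MII library 3, 719 without 4C library 1 and 827 without 4C library 3. From GV to MII (1333) it was 3144 with only the 2 stages, 636 with the pseudocount, 565 with scaling, 244 without GV library 1, 485 without GV library 2, 707 without MII library 2 and 2004 without Mo library 2. Scaling moved the median log2 change of all entries by -0.145 from Mo to Bl, 0.102 from 8C to Mo and 0.151 from GV to MII. It moved the higher share of calls from 85% to 69.3% from Mo to Bl and from 33.8% to 51.3% from MII to 4C. Depth limits KRT19 from PN to 8C, where values rest on 0 to 4 reads, and the lowest values of KRT7 and KRT8.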
